A study of Mus musculus with 6 samples.

Results

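The transcription factors that set up and maintain the macrophage lineage were followed in tumor-associated macrophages (TAMs) with and without the complement receptor C5aR. The factors are the products of Spi1, Cebpa, Cebpb, Maf, Irf8, Pparg, Zeb2, Bhlhe40 and Bhlhe41, and their 9 rows were taken from the 56980 genes of the deposited table by gene identifier. TAMs were sorted as live CD45+ CD11b+ Ly6G- F4/80+ cells from tumors grown by injecting ID8 cells, a mouse ovarian epithelial cancer line, into the peritoneum of female C57BL/6 wild-type (WT) mice or of C5aR-/- mice on the same background, aged 6 to 8 weeks, and the tumors were taken about 2 months later. Each genotype gave 3 libraries. The knockout was present in the whole body, so every host cell lacked the receptor, while the injected ID8 cells were the same in both groups. The values are TPM, transcript abundances that are scaled to transcript length and to the library total and can be compared between genes. TPM keeps no read depth, so the counting precision of single values is unknown. The labels number the libraries without saying which mice they came from, the study counts more mice per genotype than the libraries analysed here, and what a library stands for is not given. The p-values measure only the spread between these samples.

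PU.1, the product of Spi1, opens the enhancers of myeloid genes and is required for macrophages to form. It works with the C/EBP factors and with IRF8 while monocytes and macrophages are made. Other factors then shape the mature cell: c-MAF restrains self-renewal, ZEB2 keeps tissue macrophages distinct from one another, BHLHE40 and BHLHE41 take part in the proliferation and identity of macrophages, and PPARγ, a nuclear receptor for fatty acids, controls lipid handling and drives the alveolar macrophage program.

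C5ar1, the targeted gene, was at 86.5, 37.3 and 16.2 TPM in WT libraries 1, 2 and 3 and at 0.38, 0.11 and 0.05 TPM in the C5aR-/- libraries (log2 difference -5.04, SE 0.56, limma adjusted p = 0.0666). The gate markers Ptprc (CD45), Itgam (CD11b) and Adgre1 (F4/80) were present in every library, at 29.4 to 103 TPM, 35.6 to 273 TPM and 25.4 to 114 TPM. Ly6g, used to exclude neutrophils, was at 0 to 4.94 TPM. The libraries also held transcripts of marker genes of other cell types, with summed TPM of 1821 to 2354 for 12 epithelial markers and of 413 to 648 for 10 fibroblast markers. Summed TPM was 1292 to 2650 for mesothelial markers and 34.3 to 2563 for neutrophil markers. It was 300 to 489 for dendritic cell markers and 42.9 to 588 for B and plasma cell markers. The epithelial and fibroblast sums rested mostly on a few genes. Krt8, Krt18 and Krt19 were each at 433 TPM or more, while Epcam was at 2.09 to 6.33 TPM and Cldn4, Cldn7 and Wfdc2 at 0.42 TPM or less. Cldn3 (38.5 to 138 TPM) and Muc16 (10.15 to 148 TPM) lay between them. Dcn was at 180 to 548 TPM, while Lum, Pdgfrb and Fap were at 1.48 TPM or less. Col1a1 was at 1.21 to 236 TPM and exceeded Dcn in C5aR-/- library 3. The highest values of Thy1, Col3a1, Pdgfra and Col1a2 were 38.6, 27.2, 26.7 and 23.6 TPM. Summed TPM of 14 macrophage markers was 9514, 3882 and 2836 in WT and 9601, 5521 and 2727 in C5aR-/- libraries, so the groups overlapped while libraries within a genotype differed more than 3-fold. Markers of other cell types differed in both directions at the unadjusted threshold (limma p below 0.05 together with a difference of 2-fold or more). Lower in C5aR-/- libraries were 7 of 11 tested neutrophil genes, 6 of 8 tested mast cell and basophil genes, 5 of 10 mesothelial genes, 2 of 6 tested fibroblast genes and 1 of 9 tested epithelial genes, Muc16, which also stands in the mesothelial list. Higher were Kit of the mast cell list and Cldn3 of the epithelial list. In bulk RNA, fewer cells of a type and less RNA per cell cannot be told apart.

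All 9 factors were expressed, each with at least 1 TPM in every library. The level of Pparg rose in C5aR-/- TAMs at the unadjusted threshold, from 1.91 ± 0.69 to 7.74 ± 4.91 TPM (SD, n = 3 each). For the other 8 factors the libraries of the genotypes overlapped. None of the 9 passed limma when the adjusted p had to be below 0.05 and the difference 2-fold or more, and neither did any other gene, so that 0% of the 14776 genes tested were called. At the unadjusted threshold, 1 of the 9 factors passed, beside 4.96% of all tested genes in either direction and 2.13% in the higher direction. The genotypes did not overlap for 1 of the 9 factors, or 11.1%, beside 21.3% of all tested genes, so non-overlap was not more frequent among the factors than in the table as a whole. With the unadjusted p below 0.05 at any fold, 2133 genes passed. Without C5aR-/- library 1, limma called 356 genes at the adjusted threshold, 0 of them among the 9 factors, and 1266 at the unadjusted one.

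**Figure D1:**
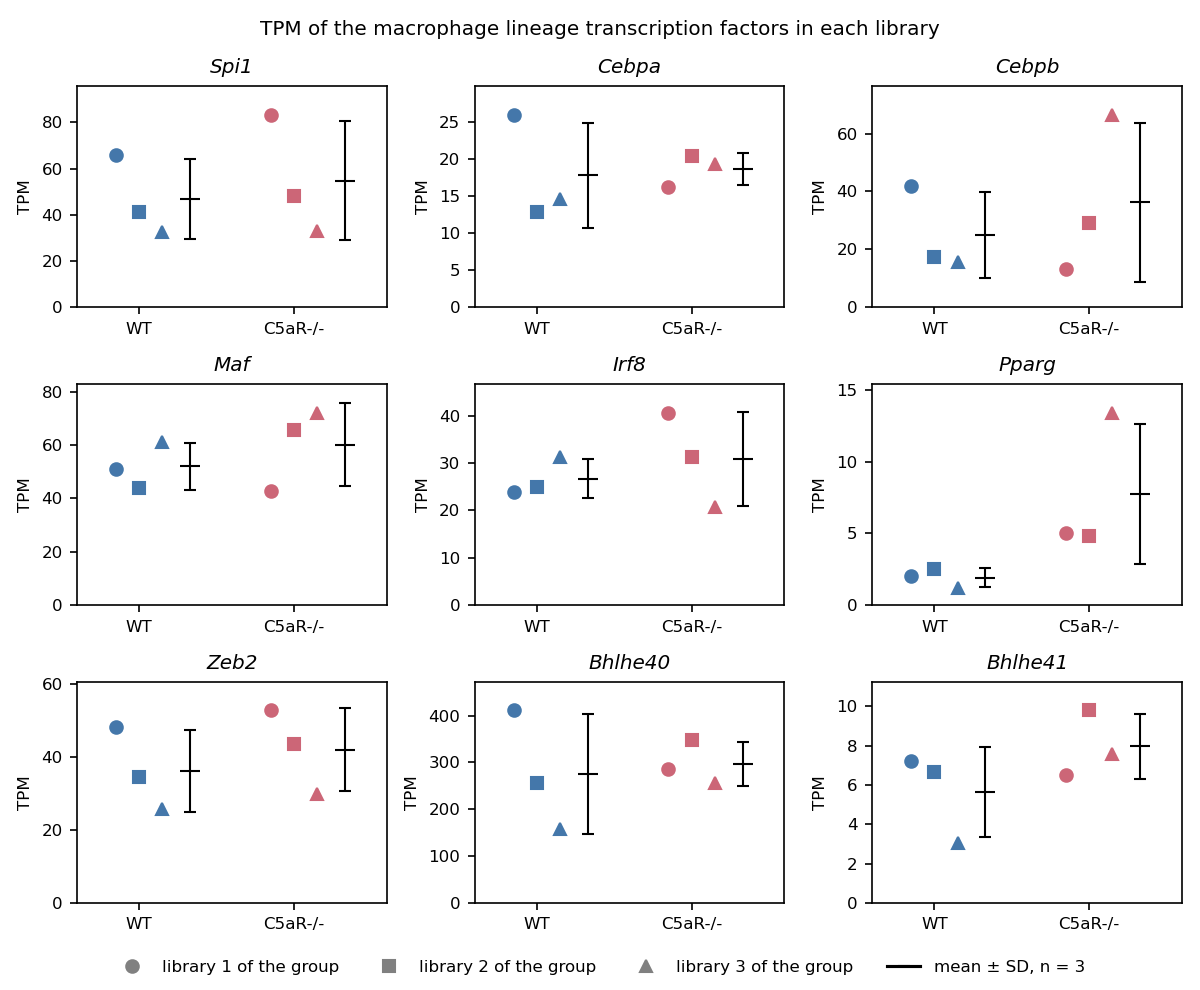
TPM of each factor in the 3 WT libraries (blue) and the 3 C5aR-/- libraries (red), with the marker shape giving the library number and the bar giving mean ± SD of the group. Only Pparg has its C5aR-/- libraries (4.81 to 13.4 TPM) all above its WT libraries (1.18 to 2.54 TPM); each axis starts at 0 and has its own range.

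The order of the levels ran from Bhlhe40, with a mean of 285 TPM over the 6 libraries, down to Pparg with 4.83 TPM. Bhlhe40 stood at percentile 96.9 of the mean TPM of all tested genes, and its lowest library, at 157 TPM, lay above every library of the other 8 factors. Maf (mean 56.1 TPM), Spi1 (50.7 TPM), Zeb2 (39.1 TPM), Cebpb (30.6 TPM), Irf8 (28.8 TPM) and Cebpa (18.2 TPM) followed, and each of these overlapped its neighbor in the order across the 6 libraries. Bhlhe41 (6.80 TPM) and Pparg stood lowest, at percentiles 29.5 and 23.6. The ranges of Bhlhe41 and Pparg overlapped, and both lay below the range of Cebpa except for Pparg in C5aR-/- library 3.

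Pparg (ENSMUSG00000000440, chr6:115360951-115490399 on the plus strand, GRCm38) encodes PPARγ, which binds DNA as a dimer with a retinoid X receptor and switches on genes of fatty acid uptake and storage. Its level was 2.02, 2.54 and 1.18 TPM in WT libraries 1, 2 and 3 and 5.0, 4.81 and 13.4 TPM in C5aR-/- libraries 1, 2 and 3. Every C5aR-/- library lay above every WT library, and C5aR-/- library 3 stood well above the other C5aR-/- libraries. The difference in log2(TPM + 1) was 1.48 (SE 0.41, 95% interval 0.50 to 2.46, unadjusted p = 0.00942 and adjusted p = 0.207 from limma). An exact permutation test of the same values, two-sided, gave p = 0.1, the smallest that 3 against 3 libraries allow. Without C5aR-/- library 3 the difference was 1.05 (SE 0.29, limma unadjusted p = 0.0124, adjusted p = 0.293, within a range of 0.106 to 0.545 over the alternatives tried), with the remaining C5aR-/- libraries still above all WT libraries. Adipocytes are a textbook source of Pparg, and of 10 adipocyte markers 8, Adipoq, Plin1 and Lep among them, were at 0.85 TPM or less in every library. The others were Lipe (14.99 to 24.5 TPM), which overlapped between the genotypes, and Fabp4 (0.60 to 38.1 TPM), which macrophages also express, and the summed TPM of the list was 59.5, 34.9 and 25.6 in WT and 28.8, 26.4 and 15.7 in C5aR-/- libraries. The libraries in which Pparg was high were also low in neutrophil markers, with summed TPM of 262, 448 and 34.3 in the C5aR-/- libraries against 1096, 2563 and 669 in WT, in the 9 mast cell and basophil markers other than Kit, with 15.9, 14.2 and 7.41 against 146, 139 and 172, and in mesothelial markers, with 1769, 2056 and 1292 against 2178, 2362 and 2650. Other markers were high where Pparg was high. Kit was at 54.7, 68.0 and 85.4 TPM in C5aR-/- against 28.9, 33.1 and 29.8 TPM in WT libraries, which brought the sum of the whole mast cell list to 70.6, 82.2 and 92.8 against 175, 172 and 202. Cldn3, an epithelial tight junction gene, was at 104, 102 and 138 TPM against 48.6, 38.5 and 39.98 TPM (log2 difference 1.41, limma adjusted p = 0.0666). The epithelial keratin gene Krt8 (0.62) and the mesothelial gene Msln (0.88) were also higher without overlap, under 2-fold. The part of these cells in the Pparg difference was not tested. Fibroblast markers overlapped between the genotypes in sum, while Col1a1 reached 236 TPM in C5aR-/- library 3, against 1.21 to 43.3 TPM in the other libraries, and its part in the high Pparg value there was not tested either.

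The start regions of Pparg and Bhlhe41 are shown as examples that hold short matches to the binding letters of factors described here. An Irf8 and a Zeb2 window also held matches and are not printed. RefSeq start windows were found for 6 of the 9 genes, in 12 windows, and Spi1, Maf and Bhlhe40 had no entry. Letters were searched on both strands for C/EBP factors (TTGCNNAA), ZEB factors (CACCTG), BHLHE40 and BHLHE41 (CACGTG), MAF factors (TGCTGA), IRF factors (GAAANNGAA), PU.1 (GAGGAAGT) and the core of the PPAR-RXR repeat (GGTCANAGG). No match overlapped a match of another motif. The first Pparg sequence, chr6:115421816-115422065 on the plus strand of GRCm38.p6, lies inside the gene, covers no annotated exon and ends at an internal start site, and its capitals mark C/EBP matches from -215 to -208 and from -16 to -9. The second, chr6:115362099-115362291, lies upstream of that start, and its capitals mark a ZEB match read on the other strand. In Bhlhe41, chr6:145865559-145865670 on the minus strand, the capitals mark, in order, ZEB matches on the other strand and a CACGTG match. The Pparg and Bhlhe41 stretches are printed only up to the first annotated exon base.
Pparg internal start: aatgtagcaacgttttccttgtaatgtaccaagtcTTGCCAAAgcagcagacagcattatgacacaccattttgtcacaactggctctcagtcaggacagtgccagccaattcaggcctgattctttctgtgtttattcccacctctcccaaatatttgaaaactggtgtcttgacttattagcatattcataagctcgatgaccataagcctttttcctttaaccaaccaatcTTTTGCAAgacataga
Pparg upstream start: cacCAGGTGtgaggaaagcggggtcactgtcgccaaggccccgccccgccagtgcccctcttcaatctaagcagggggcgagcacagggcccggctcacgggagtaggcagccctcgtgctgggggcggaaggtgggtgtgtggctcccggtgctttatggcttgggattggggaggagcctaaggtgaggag
Bhlhe41 start: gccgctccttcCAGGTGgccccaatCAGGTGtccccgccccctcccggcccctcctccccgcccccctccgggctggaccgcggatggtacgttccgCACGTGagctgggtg

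Of the 12 windows, 2 held the C/EBP letters (an internal Pparg window and a Zeb2 window), 3 the ZEB letters (in Irf8, Pparg and Bhlhe41), 1 the MAF letters (in Irf8) and 1 the CACGTG letters (in Bhlhe41). Among the 32851 windows of all genes, the C/EBP letters were found in 10.8%, the ZEB letters in 20.2%, the MAF letters in 19.5% and CACGTG in 7.15%. The letters of PU.1, of IRF factors and of the PPAR-RXR core were in none of the 12 windows, against 3.20%, 8.56% and 1.72% of all windows. The internal Pparg stretch was 40.8% G and C, the upstream one 63.6% and the first start of the gene 82.4%, over the 250 bases before each start. The deposited values are sums per gene, so the use of these starts in TAMs was not analysed here.

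Spi1 (ENSMUSG00000002111, chr2:91082390-91115756, plus strand) encodes PU.1. It was at 66.0, 41.2 and 32.7 TPM in WT and at 83.2, 48.0 and 33.01 TPM in C5aR-/- libraries 1, 2 and 3, and the genotypes overlapped. The log2 difference was 0.19 (SE 0.39, 95% interval -0.74 to 1.11, limma adjusted p = 0.861). Zeb2 (ENSMUSG00000026872, chr2:44983632-45117395, minus strand), whose product represses transcription at E-box sites, was at 48.1, 34.4 and 25.8 TPM in WT and at 52.8, 43.5 and 29.9 TPM in C5aR-/- libraries. The genotypes overlapped for Zeb2 as well, with a log2 difference of 0.22 (SE 0.29, interval -0.47 to 0.91, limma adjusted p = 0.765). In both genotypes the library rich in macrophage markers was rich in Spi1 and Zeb2, and the library poor in them was poor in both.

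This was measured against a macrophage index, the mean log2(TPM + 1) of the 14 macrophage markers, which was 7.53, 6.42 and 6.10 in WT and 7.95, 7.15 and 6.21 in C5aR-/- libraries. The markers were Adgre1, Csf1r, Cd68, Fcgr1, Mertk, Mrc1, Lyz2, C1qa, C1qb, C1qc, Itgam, Cd14, Aif1 and Marco. Csf1r, Cd68, Fcgr1, Lyz2, Itgam and Cd14 also stand in the list of PU.1 and C/EBP targets described below. Adgre1, Mrc1, C1qa, C1qb and C1qc stand in that of MAF targets. Over the 6 libraries, Spi1 followed the index with Pearson's r = 0.983 (exact permutation p = 0.0014, the smallest that 6 libraries allow, and 0.0125 after Benjamini-Hochberg adjustment over 9 relations) and Spearman's rho = 1.0 (exact permutation p = 0.0028, adjusted 0.0125). Without WT library 1 and C5aR-/- library 1, the farthest from the median index, r was 0.941. Zeb2 gave r = 0.976 (exact permutation p = 0.0056, adjusted 0.025), rho = 1.0 (p = 0.0028 by exact permutation, adjusted 0.0125) and r = 0.963 without those libraries. The other 7 factors did not pass: Bhlhe40 had r = 0.706 (exact permutation p = 0.106, adjusted 0.317) and rho = 0.829 (exact permutation p = 0.0583, adjusted 0.175), Pparg had r = 0.0049 and Maf had r = -0.514. The points share the scaling of each library to the same total, and 3 libraries per genotype are too few for a coefficient within a genotype. With the index as a covariate, the Spi1 difference between the genotypes turned to -0.11 (SE 0.13) and that of Pparg was 1.62 (SE 0.41, limma adjusted p = 0.127).

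**Figure D2:**
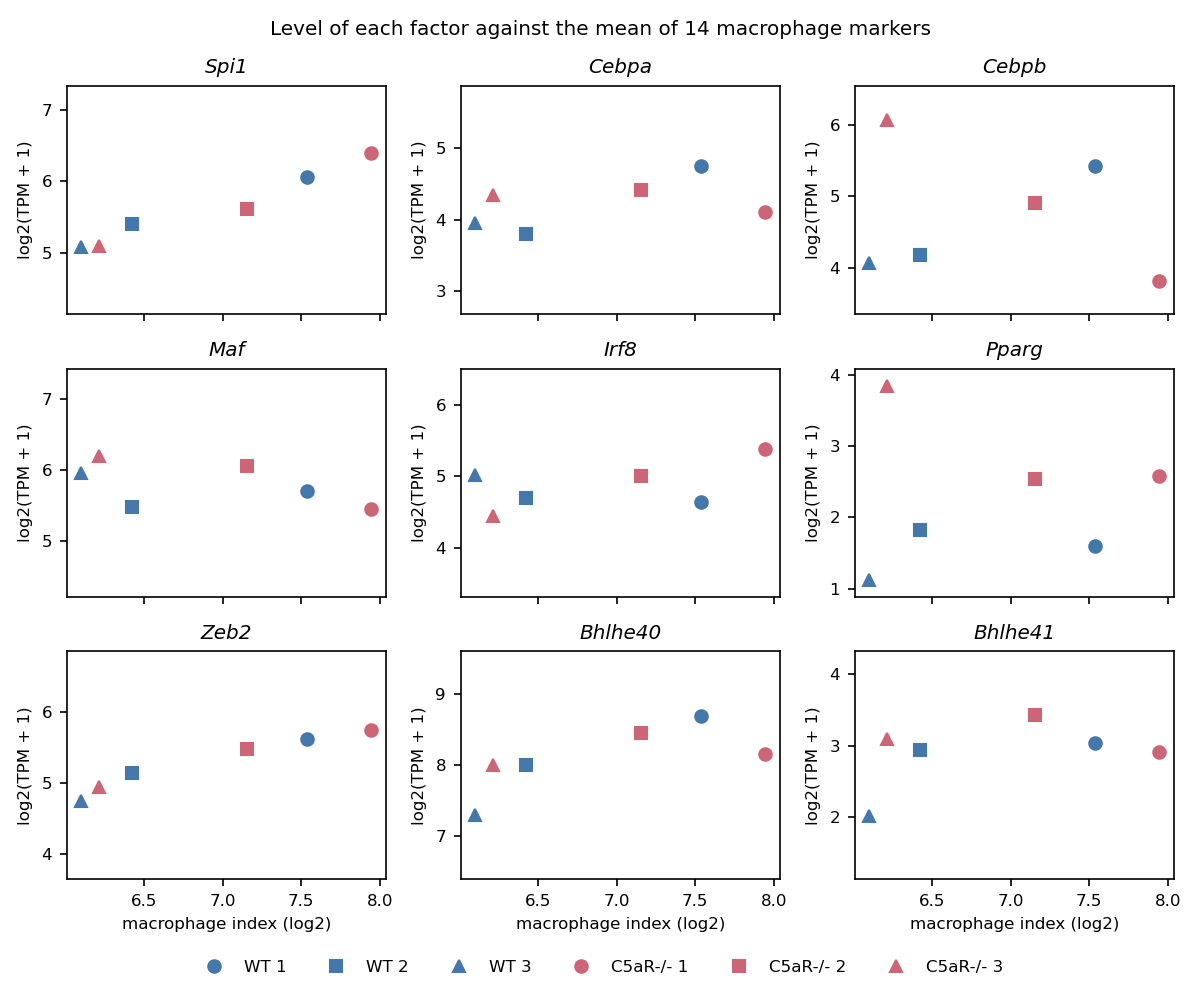
Level of each factor as log2(TPM + 1), on axes that all span the same range, against the macrophage index in the 6 libraries (blue WT, red C5aR-/-, shape giving the library number). Spi1 and Zeb2 rise with the index (r = 0.983 and 0.976), whereas the points of Pparg do not line up with it (r = 0.0049).

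The genes with the profile nearest to that of Spi1 over the 6 libraries, by the root mean square difference of mean-centred log2(TPM + 1), were Fcgrt (distance 0.044), which encodes the neonatal Fc receptor, and March1 (0.058), which encodes an E3 ligase that removes MHC class II from the surface. Those nearest to Zeb2 were Mmp19 (0.061), a matrix metalloproteinase, and Klf6 (0.068), a zinc finger factor at 143 to 258 TPM. Spi1 and Zeb2 were also the closest pair among the 9 factors, at 0.18, followed by Bhlhe40 with Bhlhe41 at 0.24. Spi1 and Cebpb, at 1.05, and Cebpb and Irf8, at 1.07, were the pairs farthest apart. For Pparg the nearest genes were farther away, at 0.19 for Nt5dc2 (4.41, 4.05 and 1.91 TPM in WT, 7.48, 10.03 and 19.8 TPM in C5aR-/-) and 0.21 for Fkbp11, a secretory pathway chaperone (14.5, 12.4 and 9.87 TPM in WT, 22.1, 19.5 and 66.0 TPM in C5aR-/-).

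Cebpb (ENSMUSG00000056501, chr2:167688915-167690418, plus strand) encodes C/EBPβ, a factor of inflammatory and alternatively activated gene programs. It was at 42.0, 17.2 and 15.8 TPM in WT and at 13.1, 29.1 and 66.5 TPM in C5aR-/- libraries. C5aR-/- TAMs thus held both the lowest and the highest library, which differed 5.07-fold. The log2 difference of 0.38 had an SE of 0.62 and a 95% interval from -1.10 to 1.85 (limma adjusted p = 0.820), which holds a 2-fold change in either direction. Without C5aR-/- library 3 the difference was -0.19. The nearest profiles were those of Gm37088 (0.22) and Srm, the spermidine synthase gene (0.25). Gm37088 was near the floor, at 2.99 TPM or less, and at 0 in WT library 3 and C5aR-/- library 1.

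Cebpa (ENSMUSG00000034957, chr7:35119293-35121928, plus strand), which encodes the C/EBP factor needed for the step to myeloid progenitors, varied 2.01-fold over the libraries. It was at 25.9, 12.9 and 14.6 TPM in WT and at 16.2, 20.3 and 19.4 TPM in C5aR-/- libraries. All C5aR-/- values lay inside the WT range, with a log2 difference of 0.12 (SE 0.27, interval -0.53 to 0.77, limma adjusted p = 0.874). The ratio of Cebpb to Cebpa was 1.62, 1.33 and 1.09 in WT and 0.809, 1.43 and 3.44 in C5aR-/- libraries, so C5aR-/- libraries held both the lowest and the highest ratio. Cebpb made up 15.4% to 30.9% of the summed TPM of the 5 C/EBP genes Cebpa, Cebpb, Cebpd, Cebpe and Cebpg in WT and 20.9% to 51.8% in C5aR-/- libraries. Cebpd, a relative induced in acute inflammation, took 36.3%, 41.2% and 49.2% in WT and 29.5%, 28.4% and 16.0% in C5aR-/- libraries, and these shares did not overlap. The TPM of Cebpd itself was 49.3, 34.4 and 50.5 in WT and 18.5, 27.0 and 20.5 in C5aR-/- libraries (log2 difference -0.99, SE 0.22, limma unadjusted p = 0.00286, adjusted p = 0.140), just short of the 2-fold limit.

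Maf (ENSMUSG00000055435, chr8:115682942-115707794, minus strand) encodes c-MAF, an activator of interleukin 10 and complement C1q genes. Its level was 51.1, 43.8 and 61.1 TPM in WT and 42.8, 65.7 and 72.2 TPM in C5aR-/- libraries. The genotypes overlapped, and the log2 difference of 0.19 (SE 0.23, interval -0.37 to 0.74, limma adjusted p = 0.752) lay within 2-fold at both ends. The antisense gene Gm15655 overlaps Maf and was at 28.3 to 32.6 TPM in WT and at 8.56, 41.9 and 29.4 TPM in C5aR-/- libraries. Whether the counting used the strand of the reads is not stated in the sources used here, so reads of Maf and Gm15655 may not have been told apart. The same holds for Cebpb with Tmem189 (19.8 to 43.9 TPM), and at lower levels for Zeb2 with Zeb2os (2.89 to 4.91 TPM), Cebpa with Gm45091 (0 to 2.37 TPM) and Bhlhe41 with Gm43909 (0.40 to 4.46 TPM).

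Irf8 (ENSMUSG00000041515, chr8:120736358-120756694, plus strand) encodes the interferon regulatory factor that directs progenitors to monocytes and dendritic cells and away from neutrophils. It was at 23.9, 24.95 and 31.4 TPM in WT and at 40.7, 31.3 and 20.8 TPM in C5aR-/- libraries. C5aR-/- libraries held both extremes, and the log2 difference was 0.16 (SE 0.26, interval -0.46 to 0.78, limma adjusted p = 0.816). Irf8 made up 4.32% to 5.87% of the summed TPM of the IRF genes in WT and 6.45% to 9.01% in C5aR-/- libraries, shares that did not overlap although the TPM of Irf8 did. Among the other IRF genes, Irf5, whose product promotes inflammatory macrophage genes, was at 95.1, 112 and 132 TPM in WT and at 86.3, 65.9 and 39.6 TPM in C5aR-/- libraries (log2 difference -0.87, SE 0.29, limma adjusted p = 0.266). Irf1, the most abundant family relative, overlapped, with 106, 126 and 212 TPM against 132, 81.3 and 119 TPM.

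Bhlhe40 (ENSMUSG00000030103, chr6:108660629-108666925, plus strand) and Bhlhe41 (ENSMUSG00000030256, chr6:145858243-145865558, minus strand) encode related repressors that bind E-boxes. Bhlhe40 was at 411, 256 and 157 TPM in WT and at 285, 348 and 256 TPM in C5aR-/- libraries. WT TAMs held its highest and its lowest library, and the log2 difference was 0.21 (SE 0.34, interval -0.61 to 1.02, limma adjusted p = 0.821). Bhlhe41 was at 7.21, 6.67 and 3.04 TPM in WT and at 6.52, 9.79 and 7.56 TPM in C5aR-/- libraries. After Pparg it had the largest difference of the 9 factors, 0.48 (SE 0.32, interval -0.29 to 1.25, limma adjusted p = 0.541), with overlapping genotypes. Bhlhe40 exceeded Bhlhe41 by 38.3- to 57.0-fold in WT and by 33.8- to 43.7-fold in C5aR-/- libraries. The profiles nearest to Bhlhe40 were those of C2cd2l (0.16) and Tgfbi (0.17), an extracellular matrix gene of macrophages at 52.9 to 119 TPM, and those nearest to Bhlhe41 were 1700109H08Rik (0.12) and Tmem35a (0.16).

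All 9 differences were above 0, beside 44.5% of all tested genes. The signs of 5 factors, Spi1, Cebpa, Cebpb, Irf8 and Bhlhe40, changed when a library was left out. Spi1 turned to -0.033 without WT library 3 and to -0.16 without C5aR-/- library 1, Cebpa to -0.067 without WT library 2, Bhlhe40 to -0.14 without WT library 3, and Irf8 to -0.057 without C5aR-/- library 1. A shared direction therefore cannot be read from them. The 95% intervals of Cebpa, Maf, Irf8 and Zeb2 lay within 2-fold in both directions, whereas those of Spi1, Cebpb, Bhlhe40 and Bhlhe41 reached at least 2-fold in C5aR-/- TAMs, and a change of that size could not be told from none in these libraries.

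**Figure D3:**
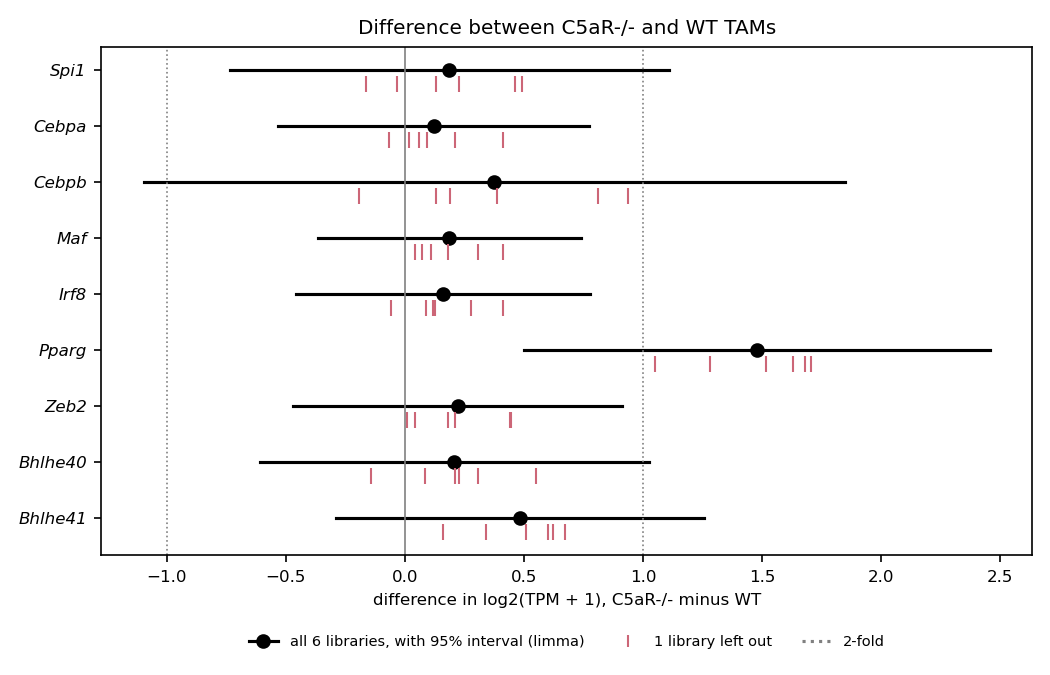
Difference of each factor in log2(TPM + 1), C5aR-/- minus WT, as the limma estimate with its 95% interval (black) and as the 6 estimates with 1 library left out (red ticks); dotted lines mark 2-fold. The interval of Pparg, 0.50 to 2.46, lies above 0, and those of the other 8 factors cross 0.

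The share of Pparg in the PPAR family did not overlap between the genotypes. Ppard, the more widely expressed relative, was the most abundant PPAR gene in every library, at 13.1, 12.9 and 18.8 TPM in WT and at 17.6, 21.0 and 21.5 TPM in C5aR-/- libraries, while Ppara was at 0.22 TPM or less. Pparg made up 13.2%, 16.2% and 5.88% of the PPAR total in WT and 22.1%, 18.5% and 38.4% in C5aR-/- libraries. Ppard exceeded Pparg by 6.47-, 5.07- and 15.9-fold in WT and by 3.52-, 4.36- and 1.6-fold in C5aR-/- libraries, without overlap. These ratios rest on the same Pparg values as its difference and are no separate evidence for it. By contrast, Zeb2 kept 66.9% to 82.6% of the ZEB total and Spi1 72.1% to 86.1% of the total of the PU.1 subfamily (Spi1, Spib and Spic), with both genotypes across the range.

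**Figure D4:**
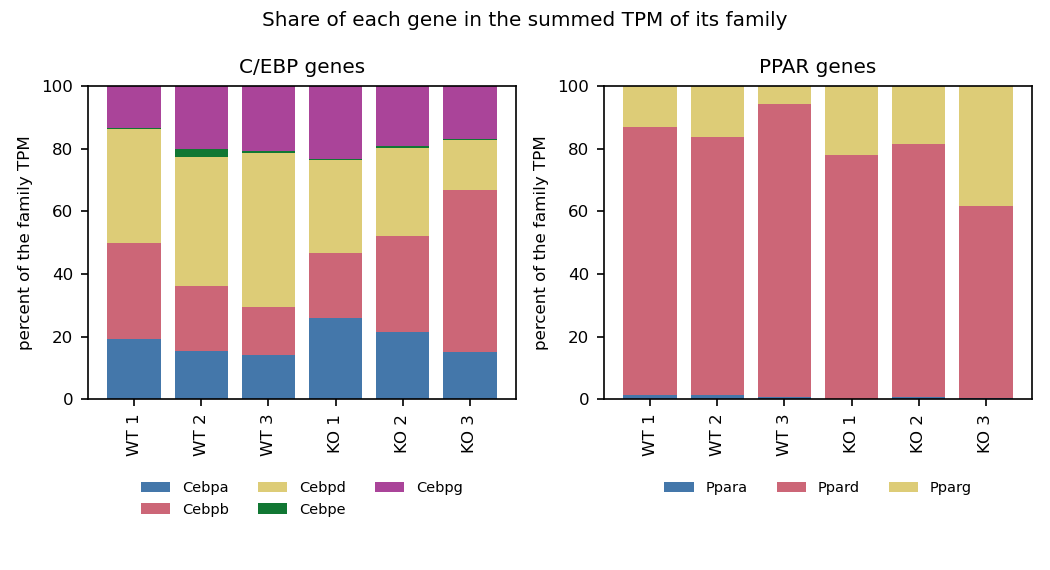
Share of each gene in the summed TPM of the C/EBP and PPAR genes, as stacked bars for the 3 WT and 3 C5aR-/- libraries (KO). The Pparg share is 5.88% to 16.2% in WT and 18.5% to 38.4% in C5aR-/- libraries, and the Cebpd share is lower in all C5aR-/- libraries.

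The genes that work with or downstream of these factors are described by lists that hold known relatives, partners and targets. Of 22 family relatives, 18 were tested and none passed the unadjusted threshold, with 6 higher and 12 lower and a median log2 difference of -0.17, beside a median of -0.048 over all tested genes. Cebpd, Irf5 and Ddit3 (log2 difference -0.57), which encodes the stress factor CHOP, were the 3 relatives whose genotypes did not overlap, all lower in C5aR-/-. Of 19 dimer partners and inhibitors, 17 were tested, and Gata1, the erythroid and mast cell factor that antagonizes PU.1, fell by 1.75 on the log2 scale (7.82, 13.9 and 4.89 TPM in WT, 2.81, 2.48 and 0.53 TPM in C5aR-/-). Gata1 shared this direction between the genotypes with the 6 mast cell and basophil genes that were lower in C5aR-/- libraries. Within WT, Gata1 and Hdc were highest in library 2, where Cpa3, Tpsb2, Mcpt4, Cma1 and Fcer1a were lowest. Within C5aR-/-, Gata1, Hdc, Cpa3 and Tpsb2 fell from library 1 to library 3. Mcpt4 and Fcer1a were also highest in C5aR-/- library 1, whereas Cma1 was highest in C5aR-/- library 2. The part of mast cells in the Gata1 difference was not tested. The partners with the highest mean level were Jun and Ctbp1, a co-repressor bound by ZEB2, and both overlapped.

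Of 52 tested genes among 56 other transcription factors of macrophages and monocytes, 1 rose and 3 fell at the unadjusted threshold. Runx2, a RUNX family factor, rose from 4.96, 4.86 and 9.62 TPM to 10.96, 14.7 and 19.2 TPM (log2 difference 1.12, SE 0.31, limma adjusted p = 0.210). Nr4a1, an orphan nuclear receptor needed by patrolling monocytes, fell from 349, 274 and 227 TPM to 89.3, 164 and 34.5 TPM (-1.79). Klf2 (-1.22), a quiescence factor, and Nfe2 (-1.54), a factor of megakaryocytes and mast cells, fell as well. The list was split nearly evenly, with 25 higher and 27 lower and a median of -0.026. Its most abundant genes were Egr1, whose genotypes did not overlap (946, 1049 and 1028 TPM in WT, 466, 843 and 491 TPM in C5aR-/-, log2 difference -0.80), and Atf3, which overlapped.

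Among 19 tested targets of PPARγ, 1 rose and 1 fell, with 8 higher and 11 lower and a median of -0.30. With so few calls, these counts are near the background of 2.13% of all tested genes called higher and 2.84% called lower. The target lists described next, with 0 or 1 gene higher and 0 to 4 lower, are to be read against the same shares. The lower calls among PU.1 and C/EBP targets (4 of 24) and MAF targets (2 of 19) were larger shares than this background. Pdk4, a kinase that turns pyruvate away from oxidation, was at 4.92, 4.59 and 1.72 TPM in WT and at 13.8, 12.4 and 18.8 TPM in C5aR-/- libraries (log2 difference 1.82, SE 0.35, limma adjusted p = 0.113). Olr1, a receptor for oxidized LDL, was at 25.02, 11.99 and 6.66 TPM in WT and at 3.8, 3.67 and 3.83 TPM in C5aR-/- libraries (-1.53, SE 0.43, limma adjusted p = 0.209). These targets thus moved in opposite directions, and the most abundant ones, Ucp2 (-0.34) and Plin2 (-0.19), a lipid droplet protein gene, overlapped. Fabp4, a fatty acid binding protein often read as a PPARγ target, was at 38.1, 10.02 and 3.19 TPM in WT and at 5.01, 3.18 and 0.60 TPM in C5aR-/- libraries, and Cd36, the fatty acid scavenger receptor, at 77.2, 38.5 and 7.72 TPM and at 140, 20.8 and 10.6 TPM. Neither passed the threshold, and in both groups of libraries their values spread over several-fold.

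Among 24 targets of PU.1 and C/EBP factors, none rose and 4 fell, with a median of -0.075. The 4 were S100a8 (-3.12), S100a9 (-3.54), Lcn2 (-2.41) and Csf3r (-1.12), which are abundant in neutrophils, and S100a8, S100a9 and Csf3r also stand in the neutrophil marker list given above. Lyz2, the lysozyme gene of macrophages and the most abundant target, was at 5812, 2293 and 1408 TPM in WT and at 4787, 2779 and 1151 TPM in C5aR-/- libraries. Among 19 targets of MAF factors, Ccl8 rose from 6.14, 4.19 and 5.66 TPM to 39.5, 18.9 and 17.8 TPM (log2 difference 1.98, SE 0.33, limma adjusted p = 0.0931), while Csf3r and Timd4, a receptor of resident macrophages for dying cells (-1.49), fell, and the median was 0.32. Ccl8 encodes a chemokine of resident macrophages, and C1qa and C1qb, the most abundant targets in this list, differed by 0.48 and 0.47 with overlapping genotypes. Among 20 targets of IRF8, Cx3cr1, the fractalkine receptor, rose from 8.08, 5.0 and 7.83 TPM to 40.7, 21.7 and 14.2 TPM (1.63, SE 0.39, limma adjusted p = 0.162), none fell, and the median was 0.0040. The most abundant IRF8 targets, Cd74 (-0.10) and H2-Aa (0.026) of the MHC class II pathway, overlapped.

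**Figure D5:**
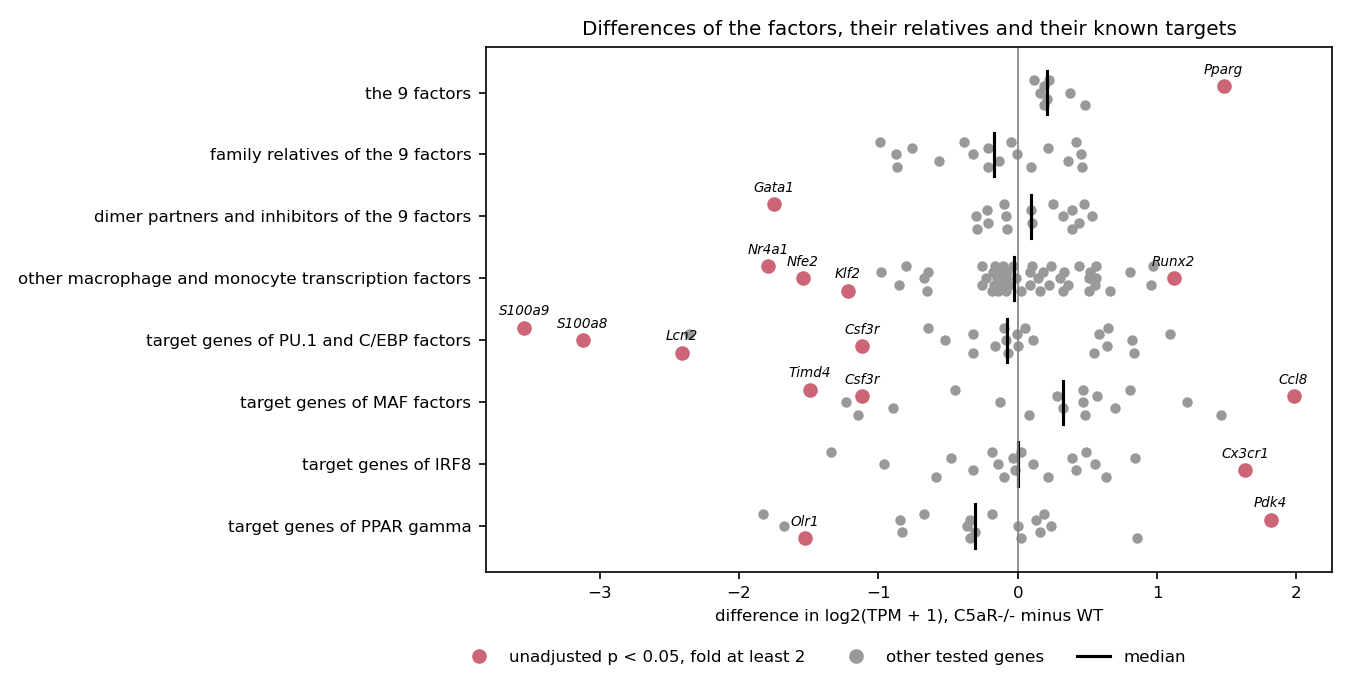
Log2 differences, C5aR-/- minus WT, of the tested genes among the 9 factors, their relatives, partners and known targets, with genes past the unadjusted threshold in red and named, other genes in gray and the median of each list as a black line. Pparg stands apart from the other 8 factors, and across the 4 target lists the named genes lie on both sides of 0, with Pdk4 at 1.82 and Olr1 at -1.53 among PPARγ targets.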

How the data were processed

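The authors sorted TAMs, made poly(A) strand-marked libraries, used fastp for trimming, HISAT2 for alignment and StringTie for transcript assembly, and the submitters' processing notes also list RSEM, DESeq2 and build mm10. They deposited TPM values per gene for 6 libraries and the authors' mean TPM of each genotype, which was not used. The methods name FPKM, whereas the deposited columns are named TPM and each sums to 1000000. Versions, annotation release and strand setting are not given in the sources used here. Symbols came from the gene names paired with the identifiers (52073 of 56980 matched), positions from an annotation of GRCm38, and start windows from RefSeq (GRCm38.p6).

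Read counts were not used, so limma 3.58.1 (R 4.3.3; lmFit, eBayes with trend, Benjamini-Hochberg adjustment over 14776 genes) was run on log2(TPM + 1) for genes that reached a TPM of 1 in 3 or more libraries. Fold changes on this scale understate changes of low genes. Other steps used Python 3.11.15, pandas 2.3.3, numpy 2.4.6 and scipy 1.17.1. The fit was also run on simulated data with residuals drawn independently for each gene and library. Shifts shared by many genes of a library were not simulated, so that run does not cover them. The text names the 9 factors, C5ar1, listed genes past the unadjusted threshold, the 2 most abundant genes of each list of relatives, partners, factors and targets, the nearest profiles of factors that ranged over at least 1 on the log2 scale, and overlapping genes. Other genes were chosen after their values were seen. These were Cebpd, Irf5, Ddit3, Ppara, Ppard, Fabp4, Cd36, Col1a1, Krt8, Msln and the markers of adipocytes and of the gate. The other epithelial and fibroblast markers that are named without passing the unadjusted threshold were chosen in the same way. The values of 1 family relative are not reported here. The factors, lists and tests were chosen with earlier results of these data known. Alternatives were the replicate number as a block, a pseudocount of 0.1, median-of-ratios scaling, quantile normalization, eBayes without trend, a TPM limit of 5, no limit on TPM, the macrophage index as a covariate and leaving out each library.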

Additional observations from a re-analysis of the deposited data

How the results depend on the processing

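Pparg kept its direction and passed the unadjusted threshold in 13 of the 13 alternatives that tested it (log2 difference 1.05 to 1.85, limma adjusted p 0.106 to 0.545). With a TPM limit of 5 in place of 1 it was not tested, so that 0 of 8 tested factors passed. Of all genes, 475 of the 11177 then tested passed. No factor passed the adjusted threshold in any alternative, and leaving out a library gave 0 to 0 factors at the adjusted and 1 to 1 at the unadjusted threshold. Over all genes, limma called 2 at the adjusted threshold without trend and 37 with the macrophage index as a covariate, and leaving out a library gave 0 to 356 (356 without C5aR-/- library 1) and, unadjusted, 567 to 1266 (1266 without C5aR-/- library 1). The cause was not tested. The unadjusted calls split into 314 higher and 419 lower as reported, and 386 and 371 with quantile normalization.

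The Spi1 difference turned to -0.11 with the covariate and ran from -0.16 (without C5aR-/- library 1) to 0.49 when a library was left out, also turning to -0.033 without WT library 3. Those of Cebpa (-0.067 to 0.41, lowest without WT library 2), Bhlhe40 (-0.14 to 0.55, without WT library 3), Irf8 (-0.057 to 0.41, without C5aR-/- library 1) and Cebpb (-0.19 to 0.93, without C5aR-/- library 3) turned as well, so 7 of 125 recomputed differences changed sign. The other 4 factors kept their sign.

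With the replicate number as a block, Pparg differed by 1.48 (unadjusted p = 0.0238, limma adjusted p = 0.260), and 811 genes passed unadjusted and 0 adjusted. Libraries with the same number correlated, as deviations from the group means, at 0.19, -0.011 and 0.27. Those with different numbers correlated at -0.23 to 0.093. With the block, the SE fell from 0.39 to 0.14 for Spi1 and from 0.29 to 0.14 for Zeb2, and rose from 0.41 to 0.45 for Pparg. The labels do not state a pairing, and the main fit did not use one. Whether the numbers pair the libraries is thus not known. TPM keeps no depth, so which low values depth limits is unknown.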
